A study of Citrus sinensis with 72 samples.

Results

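The segment membrane (SM) of the 'Fengjie 72-1' navel orange (Citrus sinensis) was compared between stage 4 and stage 3 of fruit development (SM4 vs. SM3). The comparison took all libraries that the labels place in the SM at these stages, 3 of each, or 6 of the 72 libraries of the series. Of the 30940 genes of the expression table, 15375 had an FPKM (fragments scaled by gene length and by the total of the library) of at least 1 in at least 3 of these libraries and were tested.

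The series holds RNA-seq of 4 fruit tissues at 6 stages, with 3 biological replicates of each. The tissues are the epicarp (EP, the coloured outer peel), the albedo (AL, the white inner peel), the SM and the juice sac (JS). By the labels, SM3 was sampled at 120 days after flowering (DAF) and SM4 at 150 DAF. The day of the latter is a little later in the paper. The labels name no treatment. All groups come from fruit of the same cultivar in the same orchard, grafted on the same rootstock (Poncirus trifoliata), and each replicate pooled fruits of a group of trees, so a library is a mean over fruits and over all cells of the dissected membrane.

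The SM is the thin wall around each segment, to which the juice sacs are attached, and it is eaten with them, so that its toughness sets much of how a segment chews. Vascular bundles of the fruit run along the segments, and sugar reaches the juice sacs, which have no veins of their own, through the tissue at their base. Stages 3 and 4 both belong to the expansion period, when citrus fruit enlarges by cell growth and takes up water and sugar before the peel colours. Genes could be given only by ID, since the table does not pair its IDs with names, so the SM is described here by the level, course, tissue pattern and length of its genes and not by pathways.

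The 72 columns of the table were matched to their samples by name. Fragments per gene were recovered from the FPKM values, and the 6 SM libraries of the comparison held 15876421 to 21065473 of them. Replicates correlated at a Pearson r of 0.942 to 0.987 over the tested genes on the log2(FPKM + 1) scale. Libraries of different stages correlated at 0.869 to 0.943, so the ranges met at their ends. SM3 replicate 1 stood apart from the other SM3 libraries. On the first principal component, which held 62.6% of the variation, SM3 replicates 1, 2 and 3 were at -12.1, -49.5 and -65.3, and SM4 replicates 1, 2 and 3 at 27.0, 65.4 and 34.4. By the study's quality table, SM4 replicate 1 had the lowest RNA integrity of the 6. Counts without each of these libraries are given with the results.

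Many genes changed in both directions between the stages. With limma and Benjamini-Hochberg adjustment, 2193 genes (14.3% of those tested) had an adjusted p under 0.05. Of these, 1285 were higher in SM4 (8.36%) and 908 were lower (5.91%), and 896 (5.83%) and 534 (3.47%) of them differed by at least 2-fold. An unadjusted p under 0.05 was found for 5253 genes (34.2%). The 3 libraries of SM4 did not overlap those of SM3 in 5732 genes (37.3% of those tested), which include all 2193 differentially expressed genes. In such bulk samples, fewer cells of a type and less RNA per cell cannot be told apart.

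The number of genes depended on single libraries. It was 3804 without SM3 replicate 1, 368 without SM3 replicate 2, 469 without SM3 replicate 3, 1531 without SM4 replicate 1, 968 without SM4 replicate 2 and 699 without SM4 replicate 3. The count was highest without SM3 replicate 1, which lay nearest to SM4. Of the 1285 higher and 908 lower genes, 168 and 129 passed the threshold in all 6 of these fits. Genes that missed the filter on low FPKM in a fit were not tested there, so they could not pass in all 6. Each gene kept its sign wherever it was tested, but the stages do not overlap in any of these genes. Leaving out a library could therefore not turn the sign.

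The balance of higher and lower genes depended on the scaling and on single libraries. The median log2 change of all tested genes was 0.21 in FPKM as deposited, so higher genes made up 58.6% of the differentially expressed genes. When libraries were rescaled by their median ratio to the mean library of the 6 (median ratio scaling), the median change was 0.01 and the higher genes were 42.0% (1005 higher and 1390 lower). It also turned in FPKM as deposited when SM4 replicate 3 was left out (343 higher and 356 lower). Of the 1285 higher genes 941 passed with that scaling, and of the 908 lower genes 884 passed. The plot of counts by setting shows this shift beside the effect of leaving out libraries.

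**Figure D1:**
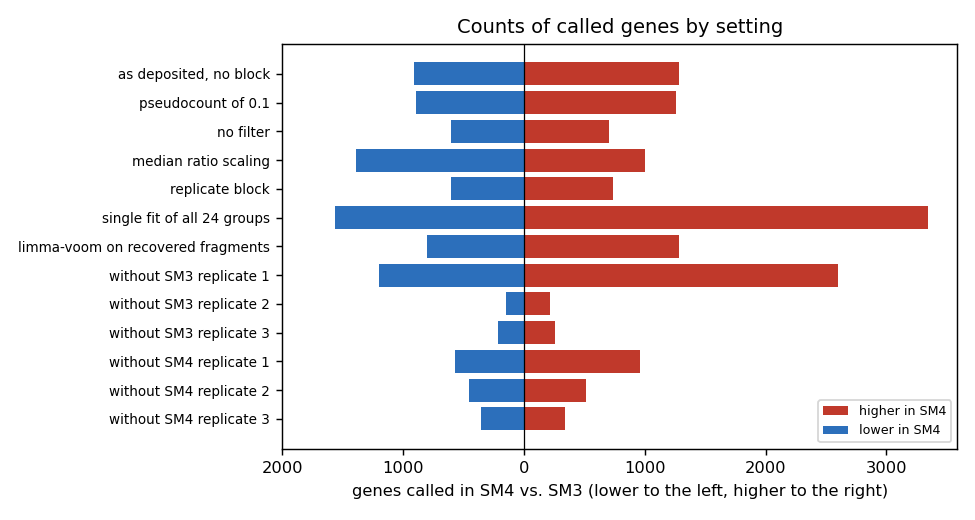
Number of genes with an adjusted p under 0.05 in SM4 vs. SM3 (x axis, genes), higher in SM4 (red) and lower in SM4 (blue), for FPKM as deposited and for each other setting or omitted library. The total ran from 368 without SM3 replicate 2 to 4905 in a fit of all 24 groups, and lower genes outnumbered higher genes with median ratio scaling and without SM4 replicate 3.

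The higher genes were mostly of moderate level, and the lower genes included more of the abundant transcripts. The median gene that was higher in SM4 rose from a mean of 7.73 FPKM in SM3 to 19.5 FPKM in SM4. The median gene that was lower in SM4 fell from 32.1 to 13.0 FPKM. The median log2 fold change was 1.17 for the higher genes (0.55 to 4.87) and -1.07 for the lower genes (-4.19 to -0.53). A change of at least 4-fold was found in 113 higher and 68 lower genes, and of at least 8-fold in 14 and 9. Levels of at least 1000 FPKM in the higher of the 2 stages were reached by 4 of the higher and 22 of the lower genes.

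Together these genes took a different part of the transcriptome at the 2 stages. The 1285 higher genes held 10.1, 8.85 and 8.02% of the summed FPKM in SM3 replicates 1 to 3, and 22.3, 20.1 and 22.5% in SM4 replicates 1 to 3. The 908 lower genes held 17.2, 19.7 and 21.6% in SM3 and 9.26, 8.17 and 8.72% in SM4. The genes were chosen for these differences, so the shares are a description. In both sets the libraries of a stage lay close together and far from the other stage, and SM3 replicate 1 was the SM3 library nearest to SM4.

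Among the genes tested, abundance and direction went together. Of the 1077 genes with a mean of 100 to 1000 FPKM over both stages, 73 were higher (6.78%) and 157 lower (14.6%). Of the 58 genes at 1000 FPKM or more, 4 were higher (6.90%) and 14 lower (24.1%). Of the 7244 genes at 1 to 10 FPKM, 498 were higher (6.87%) and 288 lower (3.98%). Over all tested genes the shares were 8.36% and 5.91%, so the abundant genes of the SM were lower in SM4 more often than the rest. With median ratio scaling, 35 of the 1135 genes from 100 FPKM were higher (3.08%) and 163 lower (14.4%), compared with 6.55% and 9.07% of all genes tested with that scaling.

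**Figure D2:**
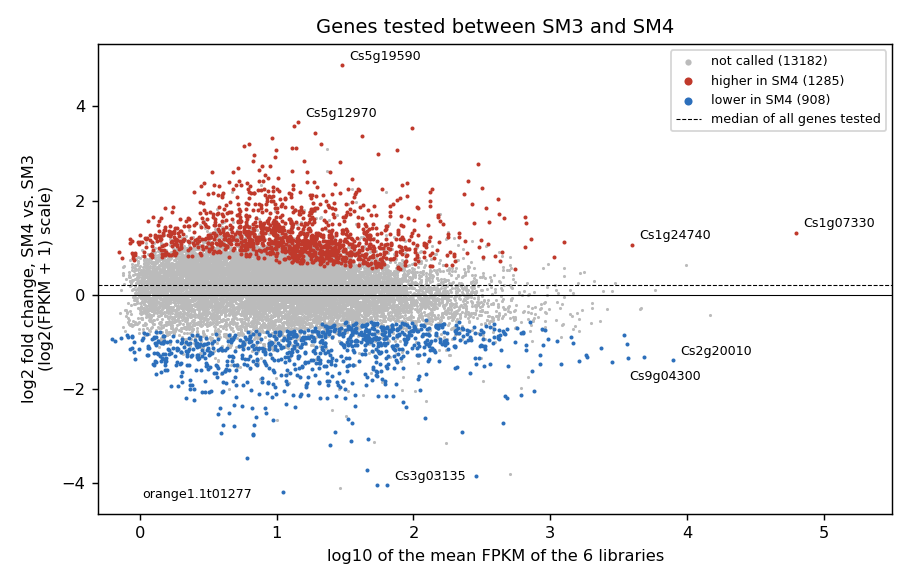
Log2 fold change of SM4 vs. SM3 (y axis) against the log10 of the mean FPKM of the 6 libraries (x axis) for the 15375 tested genes, with the 1285 higher genes in red and the 908 lower genes in blue. The named genes are labelled, and at levels above 100 FPKM the lower genes outnumber the higher ones.

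The length of the genes also went with the direction. A gene's length is the one that the FPKM steps imply. The median length was 1946 bases for higher genes, 1406.5 bases for lower genes and 1737 bases for all tested genes. In the 5116 shortest genes 6.29% were higher and 8.39% lower. In the 5133 genes of middle length 8.32% were higher and 6.80% lower. In the 5126 longest genes 10.5% were higher and 2.54% lower. The share of lower genes was smallest among the longest genes also with median ratio scaling (4.61%, against 12.3% of the shortest), with limma-voom (2.67% against 6.74%) and in each fit with 1 library left out. For higher genes the order was not kept without SM3 replicate 2 (1.22% of the longest and 1.61% of the shortest) or SM3 replicate 3 (1.57% and 1.78%), and without SM4 replicate 2 the shares were 3.34% and 3.33%.

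The difference could also be seen in the levels of whole libraries. The median log2(FPKM + 1) of the longest genes minus that of the shortest was -0.16, -0.36 and -0.29 in SM3 replicates 1 to 3. It was 0.02, 0.12 and -0.10 in SM4 replicates 1 to 3. All 3 SM4 libraries were thus above all 3 SM3 libraries, and SM4 replicate 2 was the highest. The part of library preparation or RNA quality in this difference was not tested.

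**Figure D3:**
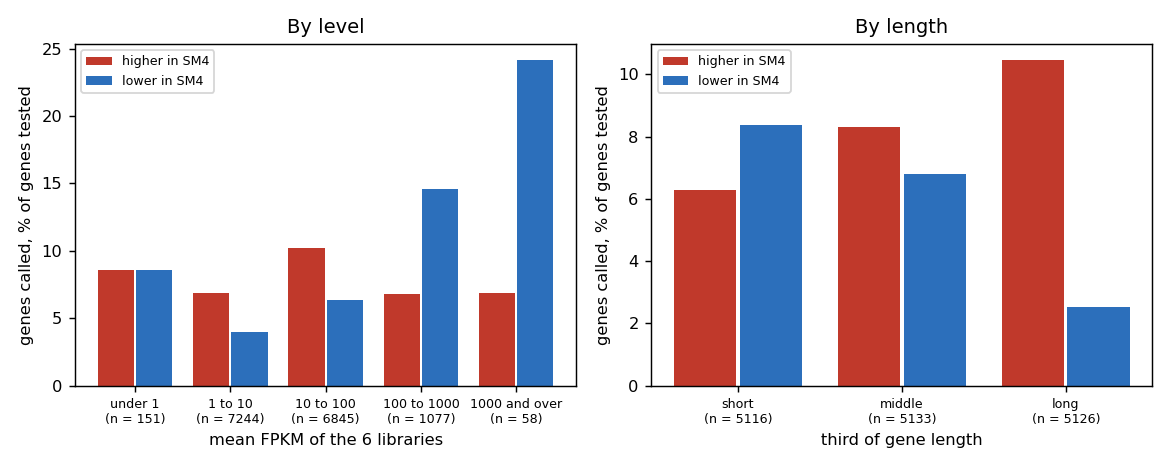
Share of tested genes (y axis, percent) that were higher (red) or lower (blue) in SM4, by mean FPKM class (left) and by gene length class (right). Lower genes rise from 3.98% at 1 to 10 FPKM to 24.1% at 1000 FPKM or more, and fall from 8.39% of the shortest to 2.54% of the longest genes.

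Among genes with a mean of at least 10 FPKM in the higher stage, Cs5g19590 (561 bases) had the largest rise on the log2(FPKM + 1) scale. Its level was 0.931, 1.24 and 0.789 FPKM in SM3 replicates 1 to 3 and 62.1, 73.7 and 40.3 FPKM in SM4 replicates 1 to 3. All SM4 libraries were far above all SM3 libraries. The means differed 59.5-fold, and the log2 fold change on the log2(FPKM + 1) scale was 4.87 (SE 0.27, limma adjusted p = 0.000196, passed in 6 of 6 fits with a library left out). The rise was a peak in the course of the SM, with 13.3, 6.35 and 13.4 FPKM in SM5 and 0.415, 0.483 and 0.645 FPKM in SM6. It was not particular to the SM. In a joint fit of the tissues the gene rose by 3.77 in the JS (limma adjusted p = 1.34e-05), 4.30 in the AL (2.24e-06) and 2.48 in the EP (0.000448). The SM change differed from that of the EP (limma adjusted p = 0.0213) but not detectably from that of the JS (0.830) or AL (0.694).

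Cs5g12970 (645 bases) came second on that scale, though its ratio of means was larger (82.4-fold), and its rise rested on 2 of the SM4 libraries. It had 0.221, 0.581 and 0.229 FPKM in SM3 and 32.2, 1.85 and 50.9 FPKM in SM4. SM4 replicate 2 was thus near the SM3 libraries, though above each of them. The log2 fold change was 3.67 (SE 0.91, limma adjusted p = 0.0329). It did not pass without SM3 replicate 2 (adjusted p = 0.148) or replicate 3 (adjusted p = 0.151), and its adjusted p was 0.0547 with median ratio scaling, 0.0692 with no filter and 0.0881 with limma-voom. With any 1 SM4 library left out it no longer met the filter on low FPKM, so its dependence on them was not tested.

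The deepest fall on the log2(FPKM + 1) scale was that of orange1.1t01277 (696 bases). It had 18.8, 26.3 and 20.6 FPKM in SM3 and 0.0905, 0.0816 and 0.623 FPKM in SM4. Its recovered fragments went from 276, 342 and 291 in SM3 to 1, 1 and 9 in SM4, so the SM4 levels rest on few fragments. The log2 fold change was -4.19 (SE 0.27, limma adjusted p = 0.000258). In SM5 and SM6 it was at 0 in all 6 libraries, while SM1 and SM2 had 6.17 to 31.1 FPKM.

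Cs3g03135 (558 bases) came next on that scale and fell from a higher level. Its means differed 18.5-fold, against 82.7-fold for orange1.1t01277, whose change is understated by the added 1. It had 140, 130 and 94.5 FPKM in SM3 and 8.24, 4.17 and 7.33 FPKM in SM4. The stages were well apart, and the log2 fold change was -4.04 (SE 0.26, limma adjusted p = 0.000258, passed in 6 of 6 fits with a library left out). In SM6 it was at 1.25 to 1.94 FPKM, so the fall was not followed by a return.

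The most abundant transcript of the SM, Cs1g07330, had the largest rise in mean FPKM of the differentially expressed genes. This short gene (207 bases) had 39008, 35213 and 32604 FPKM in SM3 and 94825, 70316 and 104345 FPKM in SM4. The lowest SM4 library was above the highest SM3 library. Its log2 fold change was 1.32 (SE 0.21, limma adjusted p = 0.00859), and it did not pass with median ratio scaling (1.08, adjusted p = 0.0719). Over the stages it climbed from 1206 to 2930 FPKM in SM1 to 142259 to 175215 FPKM in SM6.

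This single gene took 5.56, 4.99 and 4.60% of the summed FPKM in SM3 and 13.2, 10.3 and 14.1% in SM4. In recovered fragments, which do not weight a short gene, it took 0.675 to 0.807% in SM3 and 1.46 to 2.16% in SM4. The 10 highest genes of each library held 15.0% ± 1.13 of FPKM in SM3 and 20.2% ± 1.91 in SM4 (SD, n = 3 each, exact permutation test, two-sided, p = 0.1, the smallest that 3 libraries against 3 can give). Without Cs1g07330 the share went the other way, from 11.1% to 9.24% (exact p = 0.1). The number of genes with at least 1 FPKM was 14797 ± 584 in SM3 and 15295 ± 472 in SM4 (SD, n = 3 each, exact permutation test, p = 0.3), a difference within the spread of the libraries.

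Among the differentially expressed genes, Cs1g24740 (1032 bases) had the second largest rise in mean FPKM. It had 2387, 2744 and 2473 FPKM in SM3 and 5540, 4791 and 5636 FPKM in SM4, with no overlap. The log2 fold change was 1.07 (SE 0.17, limma adjusted p = 0.00809), and its adjusted p with median ratio scaling was 0.0838.

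The largest fall in mean FPKM of the differentially expressed genes was that of Cs2g20010 (1527 bases). It had 10365, 10864 and 13193 FPKM in SM3 and 4505, 3953 and 4661 FPKM in SM4. Every SM4 library was below every SM3 library, and the log2 fold change was -1.39 (SE 0.18, limma adjusted p = 0.00427). The gene was at 10812 to 13020 FPKM in SM2 and at 1169 to 1436 FPKM in SM6.

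Cs9g04300 (1316 bases) had 5244, 6915 and 8436 FPKM in SM3 and 3882, 2077 and 2489 FPKM in SM4. The stages did not overlap, but the libraries of each were more spread. The log2 fold change was -1.31 (SE 0.27, limma adjusted p = 0.0197). Its adjusted p was 0.0710 without SM3 replicate 2, 0.0758 without SM3 replicate 3 and 0.0721 without SM4 replicate 3.

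The other 2 genes among the 3 most abundant of the SM did not pass the test. Cs9g04210 had 20027, 13320 and 17246 FPKM in SM3 and 10248, 14378 and 12994 FPKM in SM4 (limma adjusted p = 0.205). Cs5g27060 had 11532, 5877 and 6473 FPKM in SM3 and 10621, 11589 and 13239 FPKM in SM4 (limma adjusted p = 0.132), and its SM3 replicate 1 was at the level of SM4. Without that library its log2 fold change was 0.93 (adjusted p = 0.0127).

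**Figure D4:**
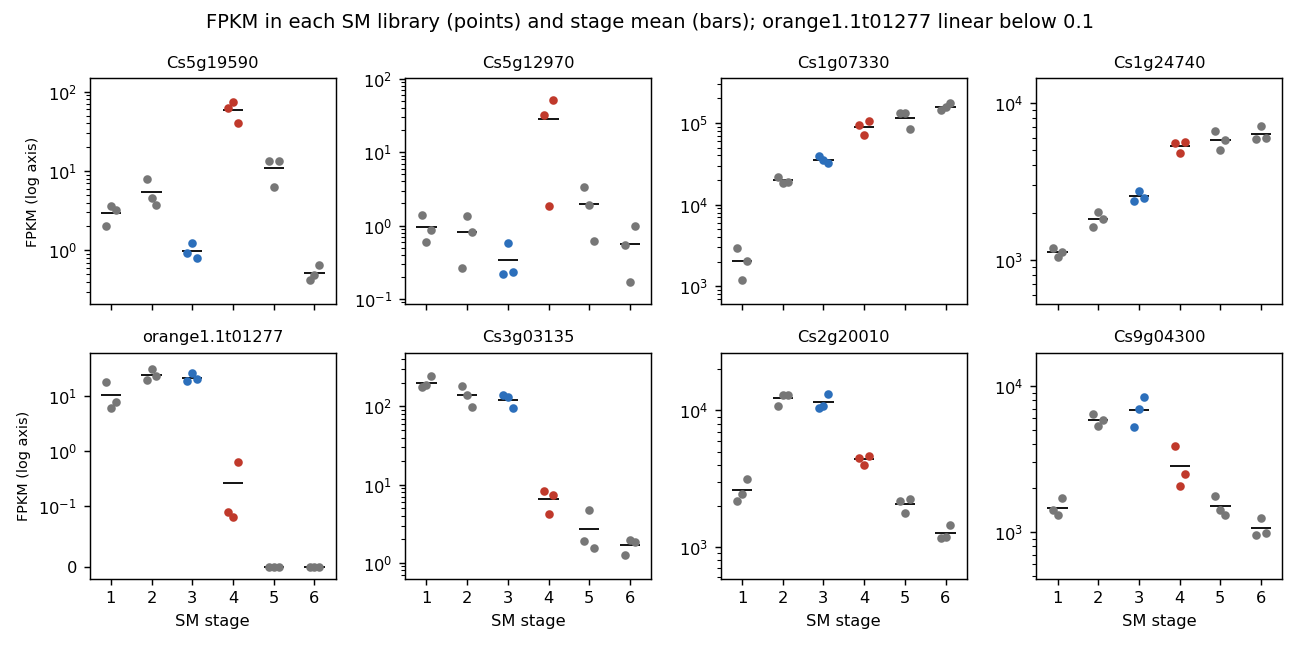
FPKM of 8 differentially expressed genes in each SM library (points) and stage means (bars) over stages 1 to 6 (x axis). SM3 is in blue and SM4 in red, on log axes. The genes have the 2 highest and 2 lowest log2 fold changes among those with a mean of at least 10 FPKM in the higher stage. The others have the 2 largest rises and 2 largest falls in mean FPKM. Cs5g19590 peaks in SM4 at 40.3 to 73.7 FPKM, Cs5g12970 is high in 2 of the 3 SM4 libraries, and orange1.1t01277 is at 0 in SM5 and SM6.

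The higher and lower genes were then followed through the other SM stages, whose libraries took no part in choosing them. The median log2(FPKM + 1) of the higher genes was 4.12 in SM1, 3.14 in SM2, 3.10 in SM3, 4.33 in SM4, 4.19 in SM5 and 3.95 in SM6. That of the lower genes was 4.43, 5.34, 5.03, 3.78, 3.69 and 3.52. The higher genes were thus lowest at stages 2 and 3, and the lower genes were highest there. For both sets the level at stage 1 lay on the same side as the level at stage 4.

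Counts of genes gave the same picture. Of the higher genes, 41.8% were at least 2-fold higher in SM1 than in SM2, compared with 14.7% of all tested genes. Of the lower genes, 46.6% were at least 2-fold lower in SM1 than in SM2, compared with 10.0% of all tested genes. From SM5 to SM6 few of them moved. Of the higher genes 6.46% were at least 2-fold lower in SM6 and 1.25% higher, and of the lower genes 4.85% were lower and 0.88% higher, compared with 2.44% and 0.57% of all tested genes.

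SM5 vs. SM2 brackets the interval with libraries that SM4 vs. SM3 does not use. Of 15919 genes tested there, limma found 5473 higher (34.4%) and 5044 lower (31.7%) in SM5. Of the 1285 genes higher in SM4, 1259 were tested in SM5 vs. SM2, and 886 of them were higher in SM5 (70.4%) and 117 lower (9.29%). The median log2 change of these 1259 genes was 0.92, against 0.05 over all tested genes. Of the 908 genes lower in SM4, 894 were tested, and 676 of them were lower in SM5 (75.6%) and 63 higher (7.05%), with a median of -1.20. The 886 genes were 16.2% of all genes higher in SM5 vs. SM2, and the 676 genes were 13.4% of all genes lower there.

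Lists of genes made from SM1 and SM6 alone described where this change lay between young and ripe membrane. Of the 2232 genes at least 4-fold higher in SM1 than in SM6, 1581 were tested, and 192 were higher in SM4 (12.1%) and 204 lower (12.9%). Over all tested genes 8.36% were higher and 5.91% lower. Of the 876 genes at least 4-fold higher in SM6, 801 were tested, and 149 were higher in SM4 (18.6%) and 57 lower (7.12%). With lists of genes at least 2-fold apart, chosen after seeing the data, 9.61% of the young genes were higher and 8.64% lower, and 12.8% of the ripe genes were higher and 6.76% lower, nearer to the shares of all genes. The median log2 change was 0.12 for the first list and 0.15 for the second of the 4-fold lists, against 0.21 for all tested genes.

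The same interval was next examined in the other 3 tissues, in a fit of the 24 libraries of stages 3 and 4 (18357 genes tested). In this fit SM4 vs. SM3 itself had 2986 genes, 1952 higher and 1034 lower. The SM genes followed here are still the 1285 and 908 of the fit of their own libraries. Genes that changed in the SM often changed the same way elsewhere. In JS4 vs. JS3, limma found 985 higher genes (5.37%) and 502 lower genes (2.73%). Of the 1285 SM genes 440 were among the higher JS genes (34.2% of the SM genes and 44.7% of the JS genes). Of the 908 lower SM genes 228 were among the lower JS genes (25.1% and 45.4%). With median ratio scaling the JS had 720 higher and 897 lower genes, so the balance of directions in the JS also depended on the scaling.

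The AL shared more genes with the SM in number. In AL4 vs. AL3 there were 1827 higher genes (9.95%) and 1142 lower genes (6.22%). Among them were 556 of the higher SM genes (43.3% of the SM genes and 30.4% of the AL genes) and 339 of the lower SM genes (37.3% and 29.7%). In EP4 vs. EP3 there were 1164 higher genes (6.34%) and 1221 lower genes (6.65%). Among them were 295 of the higher SM genes (23.0% of the SM genes and 25.3% of the EP genes) and 240 of the lower SM genes (26.4% and 19.7%). Opposite calls were few, with 2 higher and 2 lower SM genes in the JS, 4 and 14 in the AL, and 16 and 22 in the EP.

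Of the 1285 higher SM genes, 154 were also higher in all 3 other tissues and 538 in no other tissue. Of the 908 lower SM genes, 75 were also lower in all 3 and 405 in none. The matching shares of all tested genes were not computed, so these counts have no background to be read against. The SM genes were called in the fit of their own libraries, and the JS, AL and EP genes in the joint fit of all tissues. The spread in the joint fit includes the SM libraries that chose the genes, so calls shared with other tissues are not independent of that choice. The log2 changes of all 18357 genes in the SM correlated across genes with those of the JS (Pearson r = 0.642), the AL (0.521) and the EP (0.445). Genes are not independent replicates, and the tissues were dissected from fruit of the same trees at the same dates, so these values describe the libraries only.

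**Figure D5:**
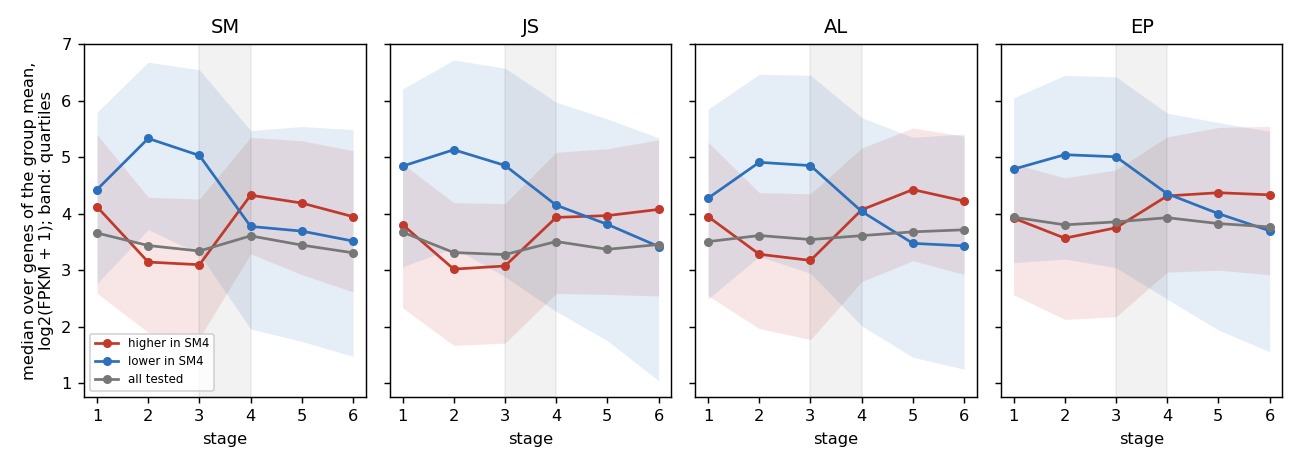
Median log2(FPKM + 1) (y axis) over stages 1 to 6 (x axis) in each tissue for the 1285 genes higher and the 908 genes lower in SM4 vs. SM3, and for all 15375 tested genes, with bands from the lower to the upper quartile of the higher and lower genes. In the SM the higher genes go from 3.10 at stage 3 to 4.33 at stage 4, and in the JS from 3.08 to 3.94.

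A gene called in the SM and not in another tissue need not differ between them, so the difference of the changes was tested itself. The change of the SM differed from that of the JS in 67 genes (0.365% of 18357). It was more positive in the SM in 22 of them (0.12%) and more negative in 45 (0.245%), and 1265 genes (6.89%) had an unadjusted p under 0.05. Against the AL the change differed in 207 genes (1.13%), 79 more positive (0.43%) and 128 more negative (0.697%) in the SM. Against the EP it differed in 900 genes (4.9%), 542 more positive (2.95%) and 358 more negative (1.95%). The count against the JS was 135 without SM4 replicate 2, with 84 more positive and 51 more negative, so its balance turned. With a pseudocount of 0.1 it was 3 and 32. The balance against the AL also turned without SM4 replicate 2 (111 and 83), and the count against the AL was 683 (343 and 340) without AL3 replicate 1 and 111 without AL3 replicate 3 or AL4 replicate 2. Against the EP the balance turned without EP3 replicate 1 (367 more positive and 378 more negative). Few genes thus differed detectably between the SM and the JS at this number of libraries, and a difference that missed the threshold is not shown to be absent.

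Of the genes whose change differed between the SM and the JS, Cs3g25300 (1296 bases) had the largest positive difference. It had 1.61, 1.74 and 0.683 FPKM in SM3 and 15.7, 20.0 and 19.7 FPKM in SM4. In the JS it stayed low, at 0.129, 0.183 and 0.136 FPKM in JS3 and 0.904, 0.362 and 0.586 FPKM in JS4. The difference of the log2 changes was 2.60 (SE 0.43, limma adjusted p = 0.00465), and with a pseudocount of 0.1 it did not pass (2.31, adjusted p = 0.319).

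Cs1g18540 (1307 bases) had 64.6, 49.0 and 52.6 FPKM in SM3 and 184, 171 and 275 FPKM in SM4. In the JS it was at 2.35 to 8.65 FPKM over both stages. Its difference was 2.55 (SE 0.53, limma adjusted p = 0.0339), and it did not pass in 8 of the fits with a library left out.

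The most negative differences from the JS belonged to genes that the JS hardly expressed. The deepest was that of orange1.1t01277, with -4.12 (SE 0.42, limma adjusted p = 1.95e-05), and it had at most 0.0800 FPKM in any JS library of the 2 stages. Cs7g06780 (1730 bases) had 13.1, 15.6 and 7.22 FPKM in SM3 and 0, 0 and 0.445 FPKM in SM4. Its difference was -3.46 (SE 0.65, limma adjusted p = 0.0134), and the JS had at most 0.0301 FPKM. Both genes fell in the AL as well, by 3.08 on the log2 scale each (adjusted p = 1.57e-06 for orange1.1t01277 and 0.000131 for Cs7g06780).

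The labelled tissue was checked with lists made from the 48 libraries of stages 1, 2, 5 and 6, since no marker could be named. A gene was placed in a tissue's list when its mean there was at least 4-fold above each other tissue. The 7 SM genes summed to 141 to 210 FPKM in SM3 and 129 to 166 FPKM in SM4, against at most 13.3 FPKM in any library of the other tissues at stages 3 and 4. Of the 5 that were tested, 0 were differentially expressed by limma or limma-voom and 1 had an unadjusted p under 0.05. In a wider list of 62 genes, at least 2-fold above each other tissue and chosen after seeing the data, 48 were tested, and 10 were higher (20.8%) and 1 lower (2.08%) in SM4. The summed ranges of both stages overlap in both lists (5927 to 9053 FPKM in SM3 and 3677 to 9398 FPKM in SM4 for the wider list). In the wider list the overlap rests on SM4 replicate 1 (9398 FPKM). SM4 replicates 2 and 3 (3677 and 4088 FPKM) were below all SM3 libraries.

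Genes of the other tissues were also present, those of the EP and JS lists at lower levels than in their own tissue. The 417 EP genes, 13 of which were at 0 in all 6 libraries, summed to 1844 to 2267 FPKM in SM3 and 1148 to 1287 FPKM in SM4, compared with 33676 to 47799 FPKM in EP3. All SM4 libraries were below all SM3 libraries. Of the 134 EP genes tested, 9 were higher (6.72%) and 29 lower (21.6%) in SM4, compared with 8.36% and 5.91% of all tested genes. Of the 581 tested genes of the wider EP list, 8.78% were higher and 13.6% lower. The 21 JS genes summed to 431 to 657 FPKM in SM3 and 407 to 618 FPKM in SM4, with 1 higher and 5 lower. In the JS itself they summed to 3192 to 4237 FPKM at stage 3 and 2216 to 2284 FPKM at stage 4. All JS4 libraries were thus below all JS3 libraries. In the wider JS list the stages did not overlap, with 5759 to 6750 FPKM in SM3 and 4517 to 4734 FPKM in SM4, and of its 111 tested genes 9 were higher (8.11%) and 23 lower (20.7%). The 5 AL genes summed to 131 to 234 FPKM in SM3 and 164 to 323 FPKM in SM4, with 1 higher and 1 lower. They summed to 299 to 805 FPKM in AL3 and 686 to 1520 FPKM in AL4, so the ranges of SM4 and AL3 overlapped. Of the 104 tested genes of the wider AL list, 12.5% were higher and 18.3% lower. The part of EP or JS transcripts carried over in dissection in the counts of SM4 vs. SM3 was not tested.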

How the data were processed

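Total RNA of the dissected tissues was made into poly(A) libraries and sequenced in pairs. The authors removed low-quality reads, mapped the rest to the C. sinensis genome with TopHat2, and deposited FPKM values per gene from HTSeq v0.6.1, and Cufflinks is named in the submitters' processing notes. The genome build is not given in the sources used here, and strand, paralogs and overlapping genes could not be checked.

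The study tested read counts with a count model. The deposited file holds FPKM, so the test was made on log2(FPKM + 1) with the robust and trended eBayes of limma 3.58.1 (R 4.3.3), on genes with FPKM of at least 1 in at least 3 libraries, at a Benjamini-Hochberg adjusted p under 0.05. SM4 vs. SM3 and SM5 vs. SM2 used their own 6 libraries. Other tissues and differences between tissues used 1 fit of 24 libraries, which share trees across tissues. Whole-library values had exact permutation tests. Fold changes on this scale understate the change of low genes. Self-tests on simulated data were made for the recovery of fragments and for the limma tests between stages and between tissues, not for the other steps.

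Fragments came out whole for 27759 of 27759 genes above 0 (tolerance 0.0001 fragments), and served limma-voom as an alternative. Gene lengths came from the same steps. Of the 30940 IDs, 0 matched the reference table, so the gene lists by name were not run and no sequence is shown.

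Genes, lists and comparisons were chosen with earlier results of these data known. Named genes had an adjusted p under 0.05, no overlap and a mean of at least 10 FPKM in the higher group: the 2 highest and 2 lowest log2 fold changes, and the 2 largest rises and falls in mean FPKM. For each difference between tissues they were the 2 highest and 2 lowest without the overlap condition, and the 3 most abundant genes were added. Replicates were groups of trees by the paper, and the trees behind each replicate number are not given in the sources used here. Alternatives were the pseudocount, the filter, median ratio scaling, a replicate block, a fit of all 24 groups, limma-voom and leaving out each library. Python 3.11.15 made the tables and figures, with pandas 2.3.3, scipy 1.17.1 and matplotlib 3.10.9.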

Additional observations from a re-analysis of the deposited data

Results flagged for a closer look

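The change from stage 3 to stage 4 differed between the SM and another tissue in 67 genes for the JS, 207 genes for the AL and 900 genes for the EP (limma, adjusted p under 0.05 for the difference itself). Each gene below was picked out because the test of this difference passed. Differences are SM change minus the other tissue's change on the log2(FPKM + 1) scale.

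Against the JS, the differences were 2.60 for Cs3g25300, 2.55 for Cs1g18540, -4.12 for orange1.1t01277 and -3.46 for Cs7g06780.

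Against the AL, the gene model Novel00051 (362 bases) had a difference of 3.35 (SE 0.44, limma adjusted p = 0.000501). It was at 0.133 to 0.740 FPKM in all SM libraries of the 2 stages, and went from 36.0, 15.1 and 12.7 FPKM in AL3 to 0.998, 0.292 and 0.872 FPKM in AL4. Cs2g06290 had a difference of 3.00 (SE 0.71, adjusted p = 0.0412), with 2.07, 9.94 and 12.8 FPKM in SM3 and 20.2, 22.4 and 22.5 FPKM in SM4, and 16.5, 7.12 and 11.2 FPKM in AL3 and 6.30, 1.92 and 3.01 FPKM in AL4. It did not pass with 3 of the other settings or in 7 of the fits with a library left out. Cs3g03390 had a difference of -4.71 (adjusted p = 0.0138), with 21.4, 2.31 and 5.16 FPKM in SM3, where replicate 1 was far the highest. Its SM4 libraries were at 0.389, 0 and 0 FPKM, so the fitted size is no bound. In SM4 vs. SM3 itself, the gene passed in 1 of the 3 fits with a library left out that tested it. It went from 0, 4.92 and 2.23 FPKM in AL3 to 4.74, 15.3 and 10.1 FPKM in AL4. Cs6g13230 had a difference of -4.02 (SE 0.82, adjusted p = 0.0182), with 16.8 to 64.0 FPKM in SM3 and 67.0 to 90.9 FPKM in SM4, and 1.51 to 7.65 FPKM in AL3 and 68.8 to 521 FPKM in AL4. Its difference did not pass with a pseudocount of 0.1 (adjusted p = 0.0522) or without SM3 replicate 1 (adjusted p = 0.0519). It rose in the AL and did not pass in SM4 vs. SM3 itself (adjusted p = 0.134).

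Against the EP, orange1.1t04733 had a difference of 5.51 (SE 0.88, limma adjusted p = 0.000452), with 0.244, 0.551 and 0.217 FPKM in SM3 and 26.5, 1.84 and 51.1 FPKM in SM4. SM4 replicate 2 was low, as it was for Cs5g12970. orange1.1t05171 had a difference of 5.38 (SE 0.61, adjusted p = 8.54e-06), with 0.337 to 0.867 FPKM in SM3 and 4.80 to 14.1 FPKM in SM4, and at least 6.68 FPKM in EP3 and 0.335 to 1.52 FPKM in EP4. The gene thus rose in the SM and fell in the EP. Cs4g02970 had a difference of -3.91 (SE 0.74, adjusted p = 0.00245), with 96.0, 65.0 and 97.5 FPKM in SM3 and 7.19, 4.49 and 5.29 FPKM in SM4, and 3.15 to 9.25 FPKM in the EP. Cs7g30170 had a difference of -3.71 (SE 0.56, adjusted p = 0.000234), with 0.847 to 2.37 FPKM in the SM, and went from 0.918 to 1.71 FPKM in EP3 to 15.2 to 47.7 FPKM in EP4.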

How the results depend on the processing

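SM4 vs. SM3 had 2193 genes, 1285 higher and 908 lower. With no filter there were 1307 (706 and 601), with the replicate block 1348 (741 and 607), in a single fit of all 24 groups 4905 (3344 and 1561), and with median ratio scaling 1390 were lower. A pseudocount of 0.1 gave 2151 genes and limma-voom 2088. Without single libraries the total ran from 368 to 3804, the higher genes from 217 to 2600 and the lower genes from 151 to 1204. Deviations of SM3 and SM4 libraries of the same replicate number correlated at r = -0.05, -0.19 and 0.21 for numbers 1, 2 and 3. With 3 libraries a stage, these values cannot show whether a number marks the same trees at both stages. In the fit of the 24 libraries the block raised the counts, to 1832 genes in JS4 vs. JS3, 3349 in AL4 vs. AL3 and 2745 in EP4 vs. EP3.

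Leaving out libraries gave 8462 to 9546 genes in SM5 vs. SM2, 575 to 1870 in JS4 vs. JS3, 1820 to 3476 in AL4 vs. AL3, and 1311 to 2165 in EP4 vs. EP3. It gave 35 to 135 genes for the SM against the JS, 111 to 683 against the AL, and 590 to 896 against the EP. The difference from the JS had 35 genes with a pseudocount of 0.1 and 131 with no filter. The difference from the AL had 372 with median ratio scaling. That from the EP had 539 with a pseudocount of 0.1 and 1353 with no filter, and with median ratio scaling its 542 and 358 genes became 423 and 422. The difference between stages in the share of the 10 highest genes turned to -1.86 percentage points without Cs1g07330, a setting chosen after seeing the data. The cause of these shifts was not tested.

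For the named genes, no setting reversed a direction. The filter, the replicate block and the fit of all 24 groups cannot change the estimate, however. Genes chosen for no overlap also cannot turn with another pseudocount or with a library left out. Of 108 values under other settings 10 no longer passed, and of 198 values with a library left out 21 no longer passed and 1 newly passed. An FPKM level near 0 rests on single fragments, and 3 libraries a stage limit what can be detected.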

Other observations

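Single libraries stood apart in some genes. SM4 replicate 2 was at least 4-fold below both other SM4 libraries, on the log2(FPKM + 1) scale, in 21 of the 15375 tested genes, and 8 of these were among the genes higher in SM4. SM4 replicate 1 was so far below in 1 gene and SM4 replicate 3 in 0. In the other direction, SM4 replicates 1, 2 and 3 were so far above both others in 17, 10 and 9 genes. SM3 replicate 1 was so far below both other SM3 libraries in 39 genes and above them in 24, while SM3 replicate 2 was apart in 0 genes and SM3 replicate 3 in 1 gene each way. These counts were made after the values of Cs5g12970 and orange1.1t04733 had been seen.

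The difference in level between long and short genes was followed through all SM stages. The median log2(FPKM + 1) of the longest genes minus that of the shortest, over the genes tested in SM4 vs. SM3, was -0.36, -0.05 and -0.02 in SM1 and -0.53, -0.30 and -0.32 in SM2. It was -0.18, -0.14 and 0.02 in SM5 and -0.02, -0.22 and -0.16 in SM6. The stages overlapped, and the 3 libraries of SM2 and replicates 2 and 3 of SM3 were among the lowest, with 1 library of SM1. In the JS it was -0.40, -0.45 and -0.37 at stage 3, and -0.51, -0.02 and -0.07 at stage 4, where JS4 replicate 1 stayed with the JS3 libraries.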
